A study of Mus musculus with 12 samples.

Results

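The hippocampus of adult RasGRF2 knockout mice was compared with that of adult wild-type mice, across every gene that the arrays measured under a single symbol. The 6 arrays used are the 3 knockout and the 3 wild-type hippocampal arrays among 12. The other 6 hold olfactory bulb of the same animals, and they entered the estimate of the spread. Knockout animals are numbered 4 to 6 and wild-type animals 1 to 3 in the titles, and each array carries the RNA of 1 animal. Both genotypes are labelled C57BL/6 and adult, no animal was treated, and all were housed in a conventional facility with exposure to common pathogens. The sources used here do not give which exons the mutation removes, how far it was backcrossed or whether the genotypes were littermates. Whole hippocampus was measured, so fewer cells of a type and less RNA per cell cannot be told apart. The study's title asks how RasGRF2 bears on nestin-positive stem cells and early neurons of the dentate gyrus.

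RasGRF2 is a calcium- and calmodulin-responsive exchange factor that loads GTP onto Ras through one domain and onto Rac through another. Ras feeds the Raf, MEK and ERK kinases, which carry synaptic signals to transcription, and Rac drives actin remodelling in dendritic spines. In the hippocampus the protein is known for a role in synaptic plasticity downstream of glutamate and calcium entry. The hippocampus itself is built from dentate granule cells, the pyramidal cells of CA3, CA2 and CA1, and interneurons, and its dentate gyrus keeps making granule cells in adult life.

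The values are log2 intensities, so a difference of 1 is a doubling. The 6 array medians lay between 6.82 and 6.89, and pairs of hippocampal arrays correlated across probe sets at 0.984 to 0.995. Knockout replicate 6 stood farthest out on the first principal component, which held 45.9% of the variance among the 6 arrays. The tissue label was checked against markers in all 6 arrays. Prox1, the granule cell homeobox factor, lay at 9.67 to 10.08 in hippocampus and at 6.49 to 6.86 in bulb, while Th, the dopamine synthesis enzyme of bulb interneurons, lay at 6.05 to 6.74 against 10.90 to 11.18. Of 9 hippocampal markers, Cpne4 alone was higher in the bulb, and all 7 bulb markers were lower in every hippocampal array.

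The targeted gene was read first. Rasgrf2 was at 9.32, 9.14 and 9.18 in wild-type and at 8.64, 8.76 and 8.49 in knockout hippocampus. Every knockout array thus lay under every wild-type array, but the knockout signal stayed well above the array medians. The difference was -0.58 (SE 0.077, limma adjusted p = 0.00197), measured by a single probe set whose place relative to the deleted part is not known. RefSeq places the gene on the minus strand of chromosome 13 in build GRCm38.p6. The 250 bases before its start, chr13:92131829-92132078, are shown because they are the promoter of the mutated gene. Capitals mark a CREB half-site, TGACG read on either strand.

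Rasgrf2: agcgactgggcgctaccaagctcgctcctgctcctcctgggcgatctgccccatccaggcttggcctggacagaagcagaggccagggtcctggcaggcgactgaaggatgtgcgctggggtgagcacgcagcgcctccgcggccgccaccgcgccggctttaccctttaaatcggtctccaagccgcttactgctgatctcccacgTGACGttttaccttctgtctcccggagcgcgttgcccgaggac

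The half-site is bound by factors of the CREB family, which ERK signalling can activate. It occurred in 21.6% of the 15614 promoters of that length in the RefSeq table, and in 12 of the 36 promoters found for genes past the threshold. The match is a description of these letters only.

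In all, 51 of 19938 genes passed at an adjusted p under 0.05 (limma over all 12 arrays, Benjamini-Hochberg), which is 0.256% of the genes tested. Of these, 29 were higher in knockout (0.145%) and 22 lower (0.11%), and 4 differed more than 2-fold. Without adjustment, 1776 genes (8.91%) had a p under 0.05. Of the gene lists examined, 95 held no call, and 298 of their 3229 genes (9.23%) had an unadjusted p under 0.05. The arrays of the groups did not overlap for any of the 51, and the same held for many other genes. Over all genes, 9.39% had all 3 knockout values above all 3 wild-type values, and 3.66% had them all below. These shares are the background for the counts of non-overlapping genes in each family below. With arrays centred on their medians the split of the calls was 23 higher and 25 lower. Of the 48 calls on genes with a name of the kind reported here, 23 held when any single hippocampal array was left out. With the 6 hippocampal arrays fitted alone 25 of the 48 ended, with adjusted p of at most 0.254. These were Haus2 and Neo1 (0.0628 for both) and 23 of the 25 that also ended in an omission, the exceptions being Ddx4 and Erich5.

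**Figure D1:**
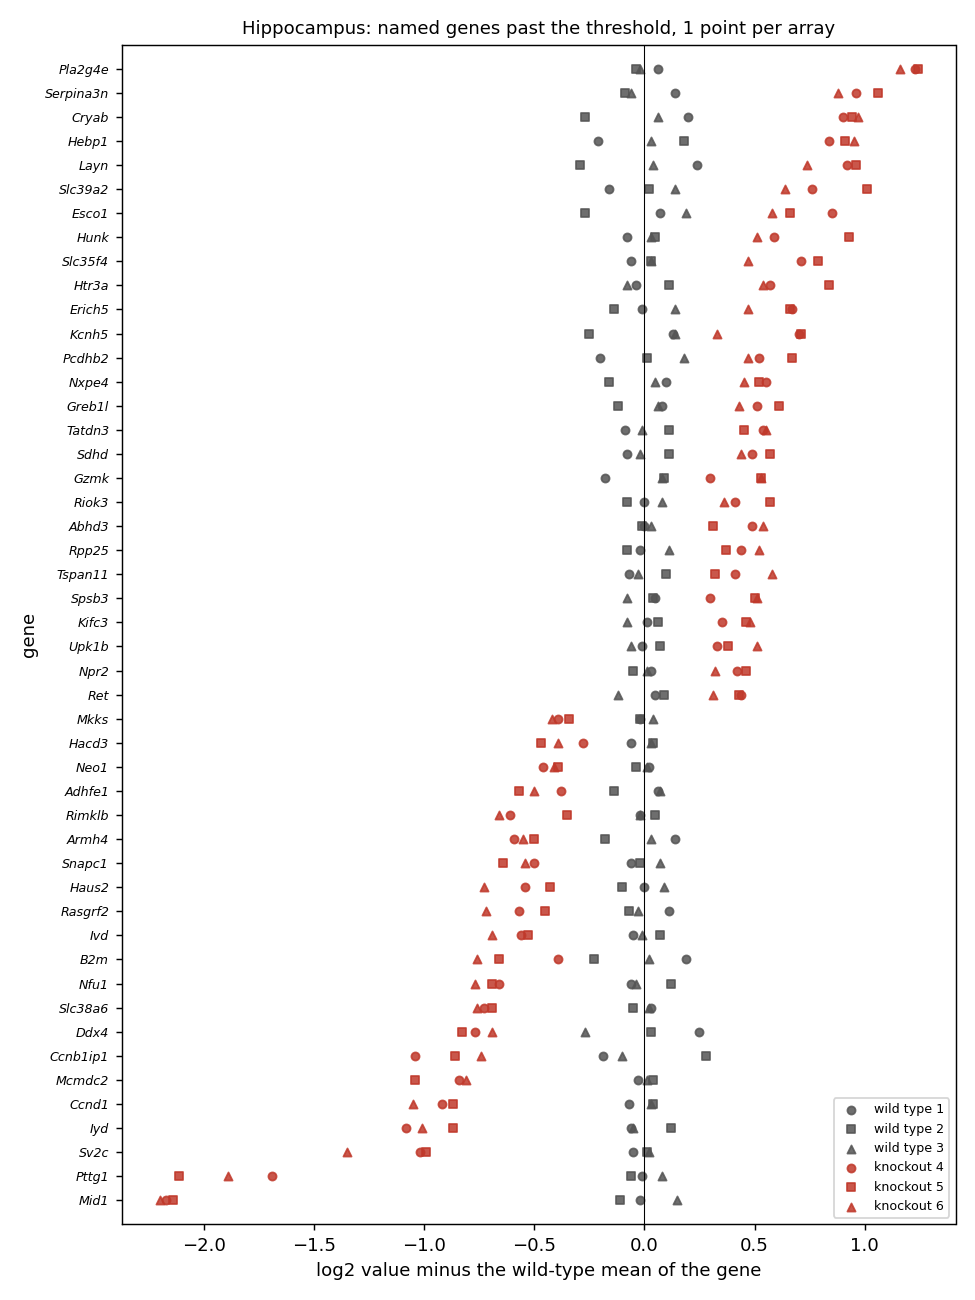
Each row is a gene past the threshold in hippocampus and each point an array, plotted as its log2 value minus the wild-type mean of the gene; grey marks the 3 wild-type and red the 3 knockout arrays. The knockout points of all 48 genes lie to one side of the wild-type points, with Mid1 at -2.17 and Pla2g4e at 1.21 at the ends.

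The genes past the threshold often lay close to each other. Of the 51, 19 (37.3%) had another such gene among the 10 measured genes on either side, against 4.04% of the 19919 genes placed in the RefSeq order. Neighbours did not always move in the same direction. On chromosome 12 Slc38a6 and Snapc1 were lower and Kcnh5 was higher, and on chromosome 2 Haus2 was lower and Pla2g4e higher. On chromosome 14 Armh4 was lower and Slc35f4 higher. On chromosome 9 Layn, Cryab and Sdhd were all higher, as were Htr3a and Nxpe4 farther along, and on chromosome 18 Greb1l, Esco1, Abhd3 and Riok3 were all higher. On chromosome 1 Adhfe1 and Mcmdc2 were both lower. Chromosome 13 held 4 calls, Rasgrf2, Sv2c, Ddx4 and Gzmk, none within 10 genes of another. Sequence near the mutation or left from another strain, and an effect of the mutation, cannot be told apart here.

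Slc38a6, a member of the sodium-coupled amino acid carrier family, was at 8.09, 8.01 and 8.08 in wild type and at 7.33, 7.37 and 7.30 in knockout. Its neighbour Snapc1, a subunit of the complex that starts small nuclear RNA genes, was at 8.73, 8.77 and 8.86 against 8.29, 8.15 and 8.25. Both sets of knockout values were clear of the wild-type values, with differences of -0.72 (SE 0.090, adjusted p = 0.00127) and -0.56 (SE 0.071, adjusted p = 0.00141). Their promoters are shown as those of neighbours that fell together, both on the plus strand of GRCm38.p6, at chr12:73286598-73286847 and chr12:73964247-73964496. Capitals again mark the CREB half-site on either strand.

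Slc38a6: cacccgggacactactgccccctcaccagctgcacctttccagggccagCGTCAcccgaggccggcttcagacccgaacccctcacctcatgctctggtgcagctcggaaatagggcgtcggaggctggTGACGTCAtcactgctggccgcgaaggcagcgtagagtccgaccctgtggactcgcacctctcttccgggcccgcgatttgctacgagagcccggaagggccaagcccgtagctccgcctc

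Snapc1: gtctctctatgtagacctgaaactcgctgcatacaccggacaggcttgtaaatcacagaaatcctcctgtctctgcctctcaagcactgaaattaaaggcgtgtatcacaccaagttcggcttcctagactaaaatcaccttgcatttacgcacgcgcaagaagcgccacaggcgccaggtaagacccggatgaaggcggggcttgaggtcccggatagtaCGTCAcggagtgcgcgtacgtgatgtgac

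The matches on opposite strands in the Slc38a6 promoter overlap in part, forming the full palindrome, and the Snapc1 promoter holds 1 match. Neither promoter, nor that of Rasgrf2, held a GC box (GGGCGG on either strand), which 46.0% of promoters and 15 of the 36 held.

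The median difference, with its sign, varied between genes of low and high signal. Genes in the lowest quartile of signal (3.33 to 5.81) had a median difference of 0.043 and those in the second quartile (5.81 to 7.30) one of 0.081, with 75.4% of the second quartile higher in knockout. In the third quartile the median was 0.027, and in the brightest (8.68 to 14.07) it was 0. Knockout replicate 6 stood highest among dim genes, with median deviations of 0.096 and 0.135 from the wild-type mean in the lower quartiles, and wild-type replicate 2 stood above the other wild-type arrays there. Over all genes the median was 0.034, and centring the arrays brought it to -0.001. A list of dim genes therefore leaned higher before any of its members was looked at, and the median signal is given beside the lists that leaned to one side. Small list medians also varied between animals. Of 111 lists with a median within 0.1 of 0, 103 moved by over 1.5 times when some array was left out, as did 10 of the other 12.

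**Figure D2:**
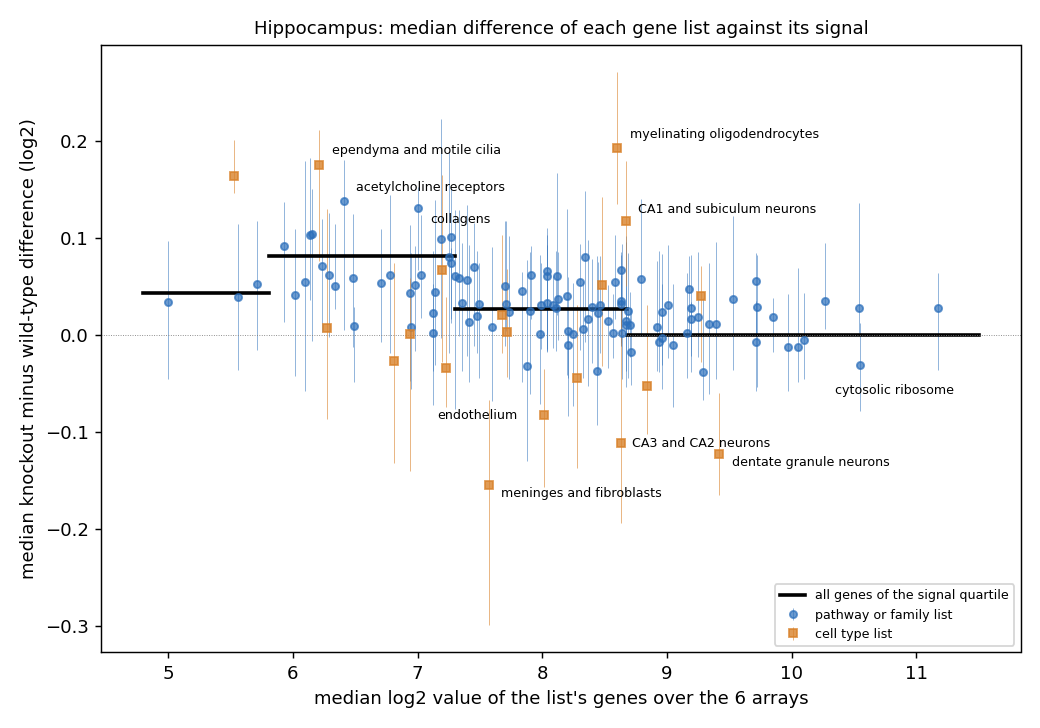
Each point is a gene list, at its median log2 signal on the horizontal axis and its median knockout minus wild-type log2 difference on the vertical axis, with bars from the lower to the upper quartile of its genes; black lines give the median of all genes in each signal quartile. Most pathway lists lie near the black lines, while myelin (0.19), dentate granule (-0.12) and meningeal genes (-0.16) lie away from them.

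Mid1 and the cell cycle gene Pttg1 had the largest decreases. Mid1, a microtubule-bound ubiquitin ligase of the tripartite motif family, was at 9.80, 9.71 and 9.97 in wild type and at 7.65, 7.68 and 7.62 in knockout, 4.51-fold lower. The knockout arrays agreed within 0.06 of each other, and no other of 62 tripartite motif and Mid genes passed. In that list 45 were higher and 17 lower, with a median of 0.054 at a median signal of 6.71. Pttg1, the securin that blocks the separation of sister chromatids until anaphase, was at 8.06, 8.01 and 8.15 in wild type and at 6.38, 5.96 and 6.18 in knockout, a difference of -1.90 (SE 0.127, adjusted p = 2.95e-06). Esco1, which acetylates cohesin, moved the other way, from 8.49, 8.15 and 8.61 to 9.27, 9.08 and 9.0. A second probe set of Esco1 read 0.88 (SE 0.114), against 0.69 for the first. Without knockout replicate 4 its adjusted p was 0.0533. The 45 genes of chromatid cohesion and separation as a whole were balanced, with 23 higher and 22 lower and a median of 0.004.

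Ccnd1, the cyclin of G1 entry, was at 9.21, 9.32 and 9.31 in wild type and at 8.36, 8.41 and 8.23 in knockout, a difference of -0.94 (SE 0.075). It was the only one of 57 cyclin and cyclin-dependent kinase genes to pass. In this family 10 genes (17.5%) lay above and 5 (8.77%) below without overlap, against 9.39% and 3.66% of all genes. Ccng1, a p53 target, was at 0.30 (adjusted p = 0.0872) and Rbl2, a pocket protein that restrains entry into S phase, at 0.38 (adjusted p = 0.171). None of 47 DNA replication, 63 DNA repair, 9 histone or 86 chromatin-modifying genes passed, and their medians lay between 0.010 and 0.043. Haus2, a subunit of the augmin complex that branches spindle microtubules, fell by 0.56 (SE 0.083, adjusted p = 0.00567), alone among 34 centrosome and augmin genes, with adjusted p = 0.0628 with the hippocampal arrays alone.

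Germ cell genes gave 3 decreases at low signal. Mcmdc2, needed for meiotic recombination, was at 6.2, 6.27 and 6.24 against 5.39, 5.19 and 5.42. Ccnb1ip1, a ligase of meiotic crossovers, was at 5.89, 6.36 and 5.98 against 5.04, 5.22 and 5.34. Ddx4, the germ cell RNA helicase, was at 6.45, 6.23 and 5.93 against 5.43, 5.37 and 5.51. All knockout values of these 3 genes lay below the array medians, so the decreases ended near the dim end of the scale. The other members of the list of 51 did not share the direction, since 34 in all were higher and 17 lower, with a median of 0.039 at a median signal of 5.56. Without knockout replicate 5 the adjusted p of Ddx4 was 0.0507.

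At synapses, Sv2c fell and Htr3a and Kcnh5 rose, while the large receptor families held no other call. Sv2c, a vesicle membrane glycoprotein, was at 8.25, 8.31 and 8.32 in wild type and at 7.28, 7.31 and 6.95 in knockout, with replicate 6 lowest, a difference of -1.11 (SE 0.095, adjusted p = 2.94e-05). The other 24 synaptic vesicle membrane genes did not pass, and the list had a median of -0.005. Htr3a, a subunit of the serotonin-gated cation channel found on interneurons, was at 6.77, 6.92 and 6.73 against 7.38, 7.65 and 7.35, a difference of 0.65 (SE 0.087, adjusted p = 0.00197). It was the only call among 14 serotonin receptor and 27 interneuron genes. Kcnh5, a voltage-gated potassium channel, was at 8.48, 8.10 and 8.49 against 9.05, 9.06 and 8.68, with adjusted p = 0.0491. That call ended with arrays centred on their medians and when any array but knockout replicate 6 was left out, with an adjusted p of at most 0.199, and it was 0.254 with the hippocampal arrays alone. Of 87 potassium channel genes 56 were higher, with a median of 0.033 (-0.003 centred). Of these 87 genes, 13 (14.9%, against 9.39% of all genes) lay above without overlap.

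Glutamate receptors were nearly level. The 29 AMPA and kainate receptor genes with their auxiliary subunits had a median of -0.013, with Nptx2, a pentraxin that clusters AMPA receptors, at 0.36 (adjusted p = 0.193) and Grik2, a kainate subunit, at -0.16. The 7 NMDA receptor genes had a median of 0.067, which was -0.008 without wild-type replicate 1, and the 7 metabotropic receptor genes one of 0.028. GABA and glycine receptors split 12 to 12, with Glra2, a glycine receptor subunit, at 7.12, 7.07 and 7.17 against 6.71, 6.68 and 6.50 (-0.49, adjusted p = 0.123). The 33 postsynaptic scaffold, 54 vesicle fusion and 25 transmitter carrier genes held no call. Among 25 synaptotagmins 20 were higher, with a median of 0.061 at a signal of 8.12 (0.026 centred), led by Syt2, a fast calcium sensor of vesicle release, at 0.35 (adjusted p = 0.0837).

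Most acetylcholine receptor genes had positive differences, but no single gene passed. Of 21 measured genes 16 were higher, with a median of 0.14, 0.10 with arrays centred. For 7 of the 21 (33.3%, against 9.39% of all genes) all knockout values lay above all wild-type values. Chrm3, the muscarinic receptor coupled to phospholipase C, was at 9.30, 9.47 and 9.40 in wild type and at 9.59, 9.74 and 9.75 in knockout. The nicotinic subunits Chrna5 (0.44) and Chrna4 (0.40) followed, and none of the 3 passed (adjusted p from 0.134 to 0.489), although Chrna5 did without knockout replicate 4 (adjusted p = 0.0364). The family's median signal of 6.41 falls in the quartile whose genes had a median of 0.081. Its array means, taken from the wild-type mean, were 0.067, 0.117 and 0.205 in knockout replicates 4, 5 and 6 and at most 0.044 in wild type.

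Among adhesion and guidance genes 2 passed. Neo1, a receptor of netrins and repulsive guidance molecules, was at 10.23, 10.17 and 10.22 in wild type and at 9.75, 9.82 and 9.80 in knockout, a difference of -0.42 (SE 0.060, adjusted p = 0.00442, and 0.0628 with the hippocampal arrays alone). Of 22 Slit, Robo, netrin and Unc5 genes 14 were lower and 4 (18.2%, against 3.66% of all genes) lay below without overlap. The median of this list was -0.038, which was -0.001 without knockout replicate 6 and -0.075 without replicate 5. Pcdhb2, a clustered protocadherin of neuronal self-recognition, was at 6.96, 7.17 and 7.34 against 7.68, 7.83 and 7.63, a difference of 0.56 (SE 0.091, adjusted p = 0.0134), with adjusted p up to 0.0902 without wild-type replicate 1 or knockout replicate 4 or 5. Other beta protocadherins stood above their wild-type values without passing. Pcdhb16 was at 7.36, 7.36 and 7.39 against 7.80, 7.88 and 7.55 (adjusted p = 0.0872, and 0.00734 without knockout replicate 6), and Pcdhb3 (0.45) and Pcdhb15 (0.27) did not overlap either. The beta protocadherins lie in 1 cluster and are close in sequence, so their probe sets may share signal. In the list of 34 beta and non-clustered protocadherins 24 were higher and 9 (26.5%, against 9.39% of all genes) lay above without overlap. The list had a median of 0.099 at a signal of 7.19 (0.064 with arrays centred). That median was 0.152 on leaving out knockout replicate 6, 0.057 on leaving out replicate 5 and 0.060 on leaving out wild-type replicate 2. The 48 other cadherins (median 0.024), 21 Eph and ephrin genes (0.050), 33 semaphorin and plexin genes (0.006) and 57 synaptic adhesion genes (0.011) held no call. Cbln1, a secreted organiser of synapses, stood at 0.46 (adjusted p = 0.0939).

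Receptors of growth factors and peptides held 2 modest increases. Ret, the receptor kinase for the GDNF family, was at 6.64, 6.68 and 6.47 in wild type and at 7.03, 7.02 and 6.9 in knockout, a difference of 0.39 (SE 0.070, adjusted p = 0.0271). It was the only call among 24 neurotrophin and GDNF genes, 17 of which were higher, with a median of 0.080 at a signal of 8.34 (0.043 without knockout replicate 6). Npr2, the guanylate cyclase receptor of C-type natriuretic peptide, rose by 0.40 (SE 0.074, adjusted p = 0.0297). Both calls ended with centred arrays. Leaving out wild-type replicate 1 or 3 or knockout replicate 4 or 5 ended both calls, and leaving out wild-type replicate 2 that of Npr2 as well, with adjusted p of at most 0.194 and 0.130. No gene passed among 65 Wnt, 31 Notch, 67 BMP and TGF-beta, 61 FGF, EGF, PDGF and VEGF, 25 insulin and IGF and 16 hedgehog genes.

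The pathways closest to RasGRF2 showed no call beyond Rasgrf2. Among 10 other Ras exchange factors 3 were higher and 7 lower, with a median of -0.010 (0.016 without knockout replicate 6). Rasgef1c, an exchange factor of the same catalytic family, was at 6.74, 6.87 and 6.80 against 7.13, 7.07 and 7.08 (0.29, adjusted p = 0.250), and Sos2, the adaptor-bound exchange factor, was at 0.07, with the opposite sign without knockout replicate 5. The 28 Ras-family GTPases split 14 to 14 with a median of 0.002. Of 12 genes of the Ras GTPase-activating protein family 9 were higher, with a median of 0.058, 0.023 with arrays centred and 0.035 without wild-type replicate 3. Iqgap3 (0.33, adjusted p = 0.139) and Iqgap2 (0.24) differed most, both scaffolds related to this family that are known to bind Rac and Cdc42 and not to switch Ras off.

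On the Rac side, 32 genes of exchange factors for Rac and related GTPases, the Elmo genes among them, had a median of 0.025 (-0.010 centred). Vav2 was at 0.25 and Dock6 at -0.31. Downstream, 27 Raf, MEK, ERK and other MAP kinase genes had a median of 0.010 and 21 upstream kinases one of 0.032. Braf, which Ras activates directly, was at -0.15 (adjusted p = 0.545). The list of ERK feedback phosphatases and Sprouty genes, only some of which ERK activity is known to induce, held 17. Its median was 0.066, with Dusp1 at -0.38 (adjusted p = 0.489). The median of this feedback list was 0.004 on leaving out knockout replicate 5, 0.036 on leaving out wild-type replicate 2 and -0.004 with array weights. Transcript levels do not report the activity of these proteins.

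Calcium and messenger genes were as level. None passed among 23 calmodulin-dependent kinases, 34 calmodulin, calcineurin and calcium buffer genes, 21 protein kinases A and C, 19 adenylate and guanylate cyclases (a list without the receptor cyclase Npr2), 24 phosphodiesterases, 31 G protein subunits or 22 regulators of G protein signalling. Dapk1, a calmodulin-regulated death-associated kinase, was at 10.31, 10.31 and 10.27 against 10.53, 10.63 and 10.55 (0.27, adjusted p = 0.0990). Of the cyclases 16 of 19 were higher, with a median of 0.062 at a signal of 7.91, 0.027 with arrays centred.

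Activity-induced genes, which neurons transcribe after strong input, leaned lower. Of 43 genes 28 were lower and 15 higher, with a median of -0.032, -0.068 without wild-type replicate 1, -0.071 without knockout replicate 5, -0.001 without wild-type replicate 3 and 0.010 without knockout replicate 4. Array means ran from -0.103 to 0.082 in wild type and from -0.154 to 0.051 in knockout, so the groups overlapped. Btg2, an antiproliferative gene of this class, was at 8.43, 8.54 and 8.85 against 7.97, 8.17 and 7.94 (-0.58, SE 0.128, adjusted p = 0.0989). Ptgs2, the inducible cyclooxygenase, was at -0.31 and Nptx2 lay in the opposite direction.

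Lipid genes included the largest increase. Pla2g4e, a cytosolic phospholipase A2 known for making N-acyl phosphatidylethanolamines, was at 6.95, 6.85 and 6.87 in wild type and at 8.12, 8.13 and 8.05 in knockout, a difference of 1.21 (SE 0.091, adjusted p = 1.02e-05). It went from the array medians to well above them, and held in every alternative. The other 26 phospholipase A2 genes did not pass. Of all 27, 25 were higher, with a median of 0.050 at a median signal of 6.34, below the 0.081 of genes in that quartile. Abhd3, a phospholipase of the hydrolase-fold family, rose by 0.44 (SE 0.079, adjusted p = 0.0259). Hacd3, a dehydratase of very long chain fatty acid synthesis, fell by 0.39 (SE 0.070, adjusted p = 0.0297). Abhd3 kept its call only without knockout replicate 5 and Hacd3 only without knockout replicate 4, with adjusted p up to 0.123 and 0.193 in the other omissions. The 22 cholesterol synthesis and 34 fatty acid genes held no call.

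Mitochondrial metabolism held single calls in several pathways. Ivd, the isovaleryl-CoA dehydrogenase of leucine breakdown, was at 9.20, 9.32 and 9.24 against 8.69, 8.72 and 8.56 (-0.60, SE 0.074, adjusted p = 0.00127), alone among 22 branched-chain genes. Nfu1, which delivers iron-sulfur clusters to lipoate synthesis and the respiratory chain, was at 10.45, 10.63 and 10.47 against 9.85, 9.82 and 9.74, alone among 22 assembly genes. A second, dimmer probe set of Nfu1 differed by -0.22 (SE 0.096) and did not pass. Sdhd, a membrane anchor of succinate dehydrogenase, was at 8.83, 9.02 and 8.89 against 9.40, 9.48 and 9.35, a rise of 0.50 (SE 0.079, adjusted p = 0.0112). Adhfe1, a transhydrogenase of hydroxy acids, fell by 0.48 (SE 0.088, adjusted p = 0.0297). The calls of Sdhd and Adhfe1 ended when single arrays were left out, wild-type replicates 1 and 3 and knockout replicates 4 and 5 for both and knockout replicate 6 for Adhfe1, with adjusted p up to 0.0740 and 0.205.

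The respiratory chain itself was level. Complex I, with 36 genes, had a median of 0.018 (-0.018 centred), complexes II, III and IV one of -0.013 over 30 genes, ATP synthase one of 0.028 and the mitochondrial ribosome one of 0.023 over 77. Mrps34, a mitochondrial ribosome protein, was at 7.84, 7.87 and 7.78 against 8.10, 8.35 and 8.24 (0.40, adjusted p = 0.0697). Ndufb10, a complex I subunit, stood at 0.32 (adjusted p = 0.103). Sdhd, already described, was the only call in the list of complexes II, III and IV. The list of the tricarboxylic acid cycle (28 genes, median 0.056), which holds Sdha and Sdhb but not Sdhd, had no call, and neither had glycolysis (22 genes, median 0.035).

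Carriers and small-molecule enzymes gave further single calls. Slc39a2, a zinc importer, was at 7.05, 7.23 and 7.35 against 7.97, 8.22 and 7.85, a rise of 0.80 (SE 0.099, adjusted p = 0.00120), alone among 38 metal ion carriers. Slc35f4, of a nucleotide-sugar carrier family, rose by 0.66, and Hebp1, a haem-binding protein, was at 7.63, 8.02 and 7.87 against 8.68, 8.75 and 8.79. Iyd, the deiodinase that recovers iodide from iodotyrosines, was at 6.39, 6.57 and 6.40 against 5.37, 5.58 and 5.44. Each of these sets of knockout values was well clear of wild type and held in every alternative. Rimklb, a ligase that makes the neuronal dipeptide N-acetylaspartylglutamate, fell by 0.54 (SE 0.097, adjusted p = 0.0273), a call that held among the omissions only without knockout replicate 5. Among 35 amino acid carriers only Slc38a6 passed, and Slc7a11, the cystine-glutamate exchanger, was at -0.52 (adjusted p = 0.270).

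Stress and immune genes moved singly as well. Cryab, a small heat shock protein of glia, was at 9.09, 8.62 and 8.95 in wild type and at 9.79, 9.83 and 9.86 in knockout, a rise of 0.94 (SE 0.104). It was the only call among 91 chaperone genes. Of these, 10 lay above without overlap, a share close to the 9.39% of all genes. Serpina3n, a serpin that reactive astrocytes are known to secrete, was at 10.40, 10.17 and 10.20 against 11.22, 11.32 and 11.14. It was the only call among 47 serpins and 32 genes of reactive astrocytes. That astrocyte list split 16 to 16 with a median of 0.001, and Vim, an intermediate filament of the same list, was at 10.11, 9.56 and 9.73 against 9.44, 9.44 and 9.33 (-0.40, adjusted p = 0.339). Layn, a hyaluronan receptor, was at 6.69, 6.16 and 6.49 against 7.37, 7.41 and 7.19, and rose by 0.88 (SE 0.113, adjusted p = 0.00147).

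B2m, beta-2 microglobulin, which pairs with class I MHC chains, was at 11.12, 10.70 and 10.95 against 10.54, 10.27 and 10.17, a fall of 0.60 (SE 0.112, adjusted p = 0.0371). Its call ended without wild-type replicate 1 or 3 or knockout replicate 5 or 6, with adjusted p up to 0.200. The other 34 MHC genes did not follow it. In the list of 35, 26 were higher, with a median of 0.10 at a signal of 6.15 (0.058 without knockout replicate 6). Gzmk, granzyme K of cytotoxic lymphocytes, rose by 0.46 (SE 0.086, adjusted p = 0.0380) at a signal of 5.75 to 6.46. That call ended with arrays centred, with quantile normalization, with trend and robust moderation and in every omission but that of knockout replicate 4, with adjusted p up to 0.196, and it was 0.227 with the hippocampal arrays alone. No gene passed among 76 interferon-induced, 30 complement, 58 chemokine, 109 interleukin and TNF and 58 Toll-like receptor and NF-kB genes. Ifi203, an interferon-induced gene, was at -0.67 (adjusted p = 0.218).

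Further calls lay in RNA, cytoskeletal and less known genes. Hunk, a kinase of the SNF1-related family, was at 8.29, 8.42 and 8.40 against 8.96, 9.30 and 8.88, with adjusted p = 0.0555 without wild-type replicate 1. Tatdn3, a TatD-type nuclease, rose by 0.51 (SE 0.074, adjusted p = 0.00476) and Rpp25, a ribonuclease P subunit, by 0.44. Kifc3, a minus-end kinesin, rose by 0.43, and was the only call among 62 kinesin and dynein genes. In that list 11 genes (17.7%, against 9.39% of all genes) lay above without overlap. Riok3, an atypical kinase of ribosome assembly and antiviral signalling, rose by 0.45. Spsb3, a substrate receptor of ubiquitin ligases, rose by 0.44, and the tetraspanins Tspan11 and Upk1b rose by 0.44 and 0.41. Greb1l rose by 0.51, although its second probe set read 0.27 (SE 0.083) and did not pass. Erich5 (0.60) and Nxpe4 (0.51) were higher, and Armh4 fell by 0.54. Mkks, a chaperonin-like protein of the ciliary base, fell by 0.38. Except for Tatdn3, the adjusted p of each gene of this group lay between 0.00736 and 0.0371, and each call ended on leaving out at least 1 array. These arrays were wild-type replicate 1 for all but Nxpe4, and in addition replicate 2 for Rpp25, Riok3, Spsb3, Greb1l, Erich5, Nxpe4 and Mkks. They were replicate 3 for Kifc3, Spsb3, Tspan11, Upk1b, Greb1l, Armh4 and Mkks. In knockout they were replicate 4 for Rpp25, Riok3, Tspan11, Greb1l, Erich5, Nxpe4, Armh4 and Mkks, and replicate 5 for Rpp25, Kifc3, Riok3, Spsb3, Upk1b, Greb1l, Erich5, Nxpe4 and Mkks. Knockout replicate 6 was needed for Rpp25, Kifc3, Spsb3, Tspan11, Upk1b and Mkks. The highest adjusted p among these omissions was 0.231, for Mkks. The calls of Riok3 and Rpp25 ended with centred arrays too.

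Cytosolic ribosome genes, among the brightest measured, leaned slightly lower. Of 54 cytosolic ribosome genes 39 were lower and 15 higher, with a median of -0.031 at a median signal of 10.55, where all genes had a median of 0. Rpl30 was at 8.30, 8.31 and 8.24 against 7.82, 8.07 and 7.91 (-0.35, adjusted p = 0.143), while Rps2 was at 11.53, 11.60 and 11.41 against 11.79, 11.81 and 11.87 (0.31, adjusted p = 0.106). Single ribosome genes thus stood on both sides. The list means overlapped between the groups, at -0.050 to 0.034 in wild type and -0.061 to 0.025 in knockout. Neither 61 translation factors, 30 aminoacyl-tRNA synthetases, 48 proteasome, 37 endoplasmic reticulum stress, 37 autophagy nor 58 lysosomal genes held a call. The translation factors had a median of -0.010. Of the synthetases 19 were higher and 11 lower, with a median of 0.055 at a signal of 8.30 (0.020 with arrays centred).

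Several families with a median signal in the second quartile leaned higher, by more than the median of 0.081 of that quartile. Of 44 collagen genes 42 were higher but only 2 (4.55%, against 9.39% of all genes) lay above without overlap. The collagen list had a median of 0.13 at a signal of 7.0. Its array means were 0.126, -0.021 and 0.245 in knockout replicates 4, 5 and 6 and 0.119 in wild-type replicate 2. On leaving out knockout replicate 6 the collagen median was 0.056, on leaving out knockout replicate 5 it was 0.199, and on leaving out wild-type replicate 3 it was 0.058. Of 119 neural fate factors such as Sox and Lhx genes 94 were higher (median 0.10 at a signal of 7.27, and 0.061 without knockout replicate 6). Of 58 intermediate filament genes 48 were higher (median 0.10 at a signal of 6.14, 0.035 with dim genes left out and 0.164 without wild-type replicate 2). In the collagen list, as among all genes of the lower signal quartiles, knockout replicate 6 stood highest and wild-type replicate 3 lowest, and the part of this in these lists was not tested.

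Cell type lists showed the widest list differences. Myelinating oligodendrocyte genes were the one list in which every measured member, 33 of 33, had a positive difference, with a median of 0.19, 0.16 with arrays centred and 0.072 with array weights. Cryab, which is also on this list, was its only call. Enpp6, a phosphodiesterase of newly formed oligodendrocytes, was at 6.15, 6.19 and 6.25 against 6.43, 6.77 and 6.43, and Mobp, a structural myelin protein, was at 9.21, 8.98 and 9.13 against 9.20, 9.48 and 9.53. Neither passed (adjusted p = 0.258 and 0.364). The list means from the wild-type mean were 0.082, -0.094 and 0.012 in wild type and 0.059, 0.275 and 0.310 in knockout, so that knockout replicate 4 lay within the wild-type range. The 18 oligodendrocyte precursor genes had a median of 0.021.

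Ependymal and motile cilia genes came next, with 39 of 40 higher and 14 above without overlap. The share above without overlap was larger than the 9.39% of all genes. In the second signal quartile, where the median signal of this list fell, 75.4% of genes were higher. The list means were 0.131, 0.115 and 0.179 in knockout and at most 0.064 in wild type, without overlap. Drc1, of the dynein regulatory complex, was at 6.24, 6.31 and 6.04 against 6.52, 6.36 and 6.61 (0.30, adjusted p = 0.386), and Rsph1, a radial spoke protein, at 0.33. No member passed. The median of 0.18 stood at a signal of 6.21, where all genes had one of 0.081, and it was 0.087 with dim genes left out and 0.103 without wild-type replicate 3. The 22 choroid plexus genes, the neighbouring tissue of the ventricle, had a median of 0.007, with wild-type replicate 1 at 0.273. Without that array the median was 0.131, and with dim genes left out it was -0.1.

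Dentate granule genes leaned lower and CA1 genes higher. Of 23 granule genes 20 were lower, with a median of -0.12 that was -0.028 without knockout replicate 6. It was -0.189 on leaving out knockout replicate 4 and -0.062 on leaving out wild-type replicate 1. Knockout replicate 6 stood at -0.281, against -0.028 and -0.073 in the other knockouts and -0.085 to 0.090 in wild type. Plk5, a polo-like kinase, was at 8.71, 8.42 and 8.42 against 8.48, 8.31 and 8.0. Of 20 CA3 and CA2 genes 13 were lower (median -0.11, and -0.068 without knockout replicate 4 or 6), Iyd among them, and the array means were -0.163, -0.003 and -0.135 in knockout. Of 14 CA1 and subiculum genes 11 were higher (median 0.12, 0.037 without wild-type replicate 1), with Mpped1, a metallophosphoesterase, at 9.74, 10.04 and 9.91 against 10.05, 10.13 and 10.31. Wild-type replicate 1 was lowest of all in the CA1 list, at -0.151, and highest of all in the granule list. How evenly the subfields were dissected was not tested, and the list means of all 3 overlapped between the groups.

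Stem cell and early neuron genes, the subject of the study, held no call. Of 21 neural stem cell genes 14 were lower and 4 (19.0%, against 3.66% of all genes) lay below without overlap. The median of the list was -0.053, which was -0.009 without wild-type replicate 1 and -0.010 without knockout replicate 6. Tnc, a matrix protein of radial glia, was at 7.15, 7.05 and 7.16 against 6.85, 6.82 and 6.62 (-0.36, SE 0.091, adjusted p = 0.205). Id4, which blocks DNA binding by helix-loop-helix factors and is known from quiescent stem cells, was at 8.98, 8.94 and 8.96 against 8.74, 8.70 and 8.72 (-0.24, SE 0.065, adjusted p = 0.258). The values of both genes did not overlap. The 21 immature neuron genes split 10 to 11, with a median of -0.045 and Dcx, the microtubule protein of migrating neuroblasts, at -0.14 (adjusted p = 0.559). The array means of that list were -0.024 to -0.069 in knockout and -0.018 to 0.028 in wild type.

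**Figure D3:**
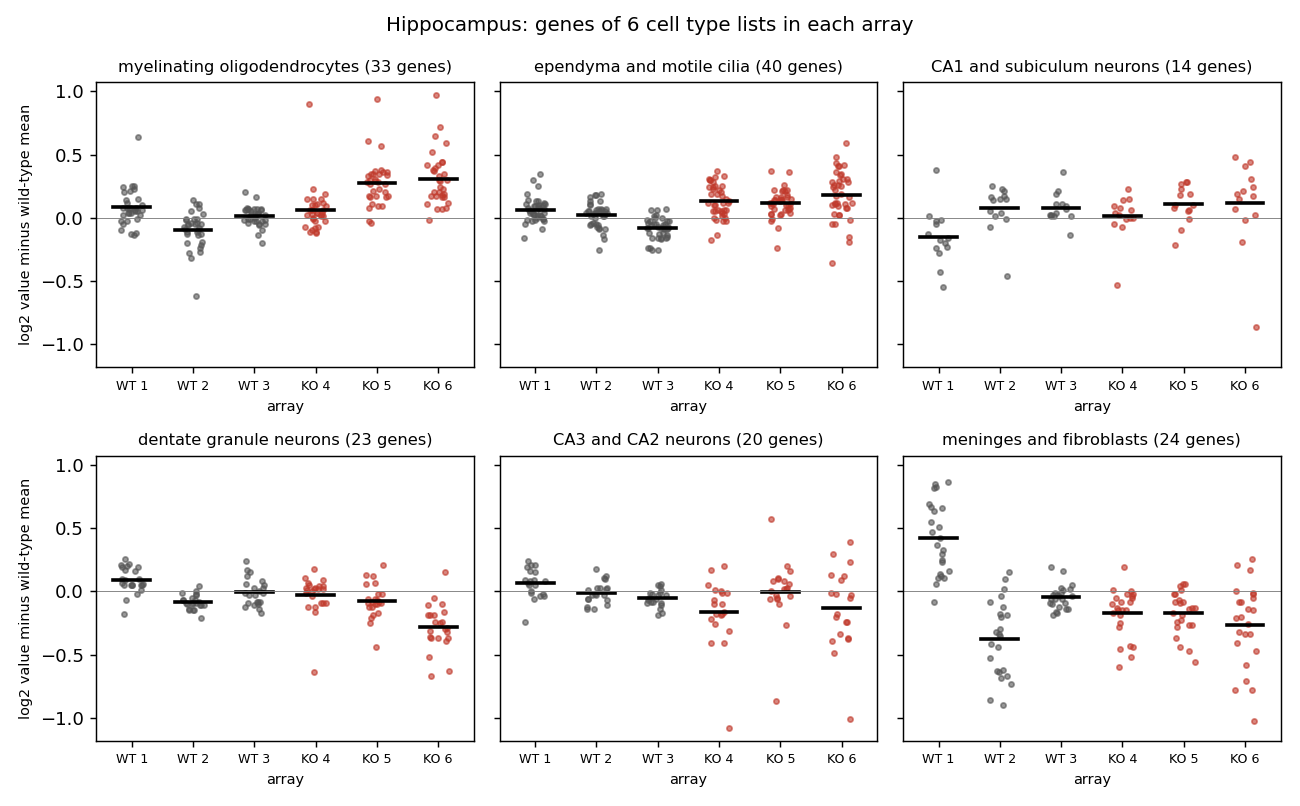
Each point is a gene of the named list in 1 array, as its log2 value minus the wild-type mean of the gene; black bars are list means, grey points wild type and red points knockout. Knockout replicates 5 and 6 stand high for myelin genes (0.275 and 0.310), knockout replicate 6 stands low for granule genes (-0.281), and wild-type replicates 1 and 2 lie far apart for meningeal genes (0.420 and -0.374).

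Meningeal genes had the largest spread of wild-type list means of all lists (SD 0.399, n = 3), followed by choroid plexus (0.238) and pericyte genes (0.162). Meningeal and fibroblast genes were lower for 21 of 24, with a median of -0.16, but the list means of the wild-type arrays were 0.420, -0.374 and -0.045 and those of the knockout arrays -0.174, -0.170 and -0.264, so the knockouts lay inside the wild-type range. Without wild-type replicate 1 the median was 0.035, and without wild-type replicate 2 it was -0.403. Lum, a matrix proteoglycan of fibroblasts, was at 6.66, 5.97 and 6.6 against 5.81, 5.85 and 5.63 (adjusted p = 0.171, and 0.00785 without wild-type replicate 2). Endothelial genes were lower for 22 of 26 (median -0.083, -0.021 without wild-type replicate 1 and -0.14 without replicate 2), and pericyte genes split 9 to 10. Wild-type replicate 1 was also the highest for reactive astrocyte genes (0.147). Astrocyte genes (29, median 0.040) and microglial genes (28, median 0.003, split 14 to 14) were nearly level. Of 9 blood cell genes 7 were higher, at a median signal of 5.53.

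The olfactory bulb of the same animals was used to ask which hippocampal differences were particular to the hippocampus. Of the 51 genes, 45 had the same sign in the bulb, and 24 passed there too, 23 of them in the same direction and Armh4 in the opposite one. Among all 19938 genes 82 passed in the bulb. The share of all genes with the same sign in both tissues was not counted. The test of the difference between tissues called 3 genes at an adjusted p under 0.05 and 2124 at an unadjusted p under 0.05. Sv2c fell in hippocampus from a mean of 8.30 to 7.18, while in bulb it read 9.74 in wild type and 9.57 in knockout. Armh4 fell from 8.97 to 8.42 in hippocampus and rose from 8.55 to 9.0 in bulb. Pla2g4e rose in both, from 6.89 to 8.10 in hippocampus and from 6.74 to 9.01 in bulb. Without knockout replicate 4 all 3 stood at an adjusted p of 0.0554, and Sv2c also missed the threshold without wild-type replicate 1, 2 or 3 (adjusted p = 0.0666, 0.115 and 0.141). Iyd, Hebp1 and Slc35f4, with bulb differences of -0.11, 0.09 and -0.06, did not pass that test (adjusted p = 0.136 to 0.138), and Mid1, Pttg1 and Cryab had bulb differences of -2.41, -1.70 and 1.02.

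**Figure D4:**
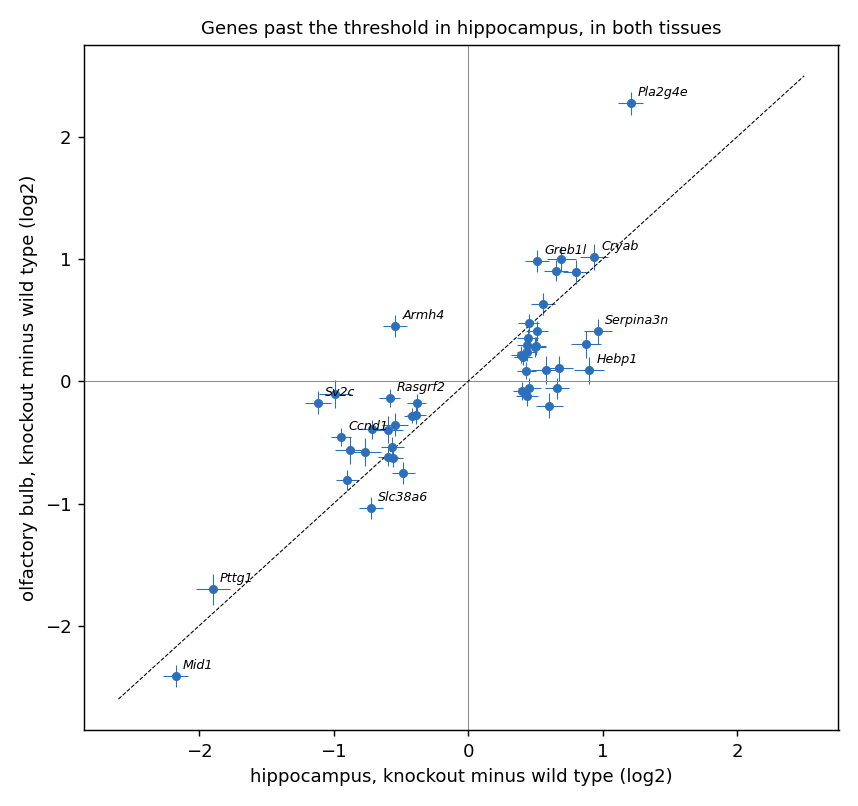
Each point is a named gene past the threshold in hippocampus, with its knockout minus wild-type log2 difference in hippocampus on the horizontal and in olfactory bulb on the vertical axis; bars are limma standard errors and the dashed line marks equal differences. Mid1 (-2.17 and -2.41) and Pttg1 (-1.90 and -1.70) lie near the line, Pla2g4e (1.21 and 2.27) above it, and Sv2c (-1.11 and -0.18) away from it toward 0 in bulb.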

How the data were processed

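Total RNA extracted with Trizol from hippocampus of 6 adult mice was biotin-labelled and put on 1-colour arrays, per the labels' protocols. The authors deposited one log2 intensity per probe set and array, made with RMA and the oligo package per the submitters' processing notes. The sources used here name no version of either. RMA compresses differences near background. Of 35556 probe sets, 21789 carry a single gene symbol, and the brightest per symbol over the 12 arrays stood for each of 19938 genes. No filter on low signal was used. Arrays carry no read depth, and 3 arrays per group limit the precision.

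The 4 group means over 12 arrays were fitted with limma 3.58.1 in R 4.3.3 (lmFit, eBayes), with Benjamini-Hochberg adjustment over all genes at 0.05. Values were read with data.table, version 1.17.8, and matplotlib 3.10.9 (Python 3.11.15) made the plots. The pipeline was tested on simulated data. Gene lists, 123 in all, were described by counts and medians and not tested. Members and lists were chosen with earlier results of these data known. The text names Rasgrf2, every gene past the threshold except clone, predicted-gene, small RNA and chemoreceptor names, and from each list up to 3 others of smallest p. Symbols, chromosomes and promoters come from RefSeq tables of GRCm38.p6, and 36 of the 51 genes past the threshold had a promoter there. The sources used here do not give the array's own build. Genotypes share no animal, so replicate numbers do not pair them. The main fit did not join the tissues of an animal. In an alternative fit the code of each animal joined its tissues as a replicate block. For wild-type animals 1 and 2 the title number and the code pair the tissues differently, and the code was used.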

Additional observations from a re-analysis of the deposited data

Results flagged for a closer look

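The knockout effect in hippocampus minus that in olfactory bulb was -1.06 for Pla2g4e (SE 0.129, limma adjusted p = 0.00875), -0.997 for Armh4 (SE 0.123, adjusted p = 0.00875) and -0.94 for Sv2c (SE 0.134, adjusted p = 0.0319). These were the only 3 of 19938 genes past the threshold in that test, where Sv2c kept its call only without knockout replicate 5 or 6 among the omissions of single arrays, and Armh4 alone of them moved in opposite directions in the tissues. When every probe set was tested, 79 probe sets without a single gene symbol passed in hippocampus, 21 higher and 58 lower in knockout, of 13767 such probe sets.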

How the results depend on the processing

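Against the 51 genes past the limma threshold (29 higher, 22 lower in knockout), the hippocampal arrays alone gave 28 (12 and 16), of which 26 were among the 51, and array weights gave 336 (222 and 114), with knockout replicate 4 weighted 4.31 and replicates 5 and 6 at 0.539 and 0.470. Testing every probe set gave 125 probe sets (49 and 76). Leaving out single hippocampal arrays gave 30 to 43 genes, of which 14 to 25 were higher and 15 to 22 lower. The total and the higher genes were fewest without wild-type replicate 1, and the lower genes without wild-type replicate 3. The test of the tissue difference called 3 genes, 12 with array weights, and 0 to 4 with single arrays left out. The 0 came without knockout replicate 4, where 1871 genes had an unadjusted p under 0.05. With the animal code as a replicate block (correlation -0.0697) the counts were again 51, 29 and 22, and 3 for the tissue difference. The remaining settings (trend and robust moderation, centring, quantile normalization, mean of probe sets, dim genes left out) gave 48 to 71 genes. Of 41 named genes that missed the threshold, 21 passed in some alternative, 20 with array weights and 10 in another. Sos2 turned from 0.07 to -0.015 without knockout replicate 5 and was 0.14 without replicate 6. List medians moved by more than the spread between arrays in 165 of 1735 recomputations. The causes of these changes were not tested. The 3 arrays per group and signals near background limit the precision.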
